A study of Arabidopsis thaliana with 30 samples.

Results

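The genes described here are the 20 nuclear Arabidopsis thaliana genes whose symbol or synonym in the TAIR10 gene annotation is HTA, HTB or HTR with a number, the names given to genes of histones H2A, H2B and H3, out of 27770 nuclear protein-coding and microRNA genes. They comprised 13 H2A genes, 5 H2B genes and 2 H3 genes. By protein class, 9 were canonical (the H2A genes HTA1, HTA2, HTA10 and HTA13 and the H2B genes HTB1, HTB2, HTB4, HTB9 and HTB11) and 11 coded for variants (H2A.X from HTA3 and HTA5, H2A.W from HTA6, HTA7 and HTA12, H2A.Z from HTA4, HTA8, HTA9 and HTA11, the centromeric histone CENH3 from HTR12, and HTR11). In the annotation used, the H3.1 and H3.3 genes carried the synonyms H3.1 or H3.3 and no HTR name, so that only HTR11 and HTR12 stood for H3. Further HTB names listed beforehand for the H2B classes matched no gene. The 5 H2B genes are therefore those found by name and need not be all H2B genes of the genome.

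Chromatin immunoprecipitation with sequencing (ChIP-seq) was carried out in 14-day-old seedlings for BRAHMA (BRM), the ATPase of a SWI/SNF chromatin remodelling complex, for the bromodomain proteins BRD1, BRD2 and BRD13, and for histone H4 acetylated at lysine 5 (H4K5ac) or lysine 8 (H4K8ac). The 10 groups were BRM-GFP in the brd1/2/13 triple mutant, BRM-GFP, BRD1-GFP, BRD2-dBromo-GFP (a BRD2 fusion whose name marks a change in the bromodomain), BRD2-GFP, BRD13-GFP, H4K5ac in brd1/2/13, H4K5ac in wild type (WT), H4K8ac in brd1/2/13 and H4K8ac in WT. The study design names the brm-1 background for BRM occupancy, brd1 for BRD1 and brd2 for BRD2, and the labels of the samples name neither the promoters that drive the fusions nor the exact change in BRD2-dBromo. Each group had 2 immunoprecipitated samples with a peak list each, 20 lists in all, and the 10 input samples were not used here. The labels number the replicates without saying whether the plants were grown apart, so that p-values here speak to how far these samples spread, which could be technical.

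The lists held 6129 to 20742 nuclear peaks each, fewest for BRM-GFP in brd1/2/13. The background at the peaks ranged from 10.01 to 38.1 reads, and the total of reads per library was not used here. For BRM-GFP in brd1/2/13 no peak had a q-value above 0.01, while other lists reached 0.05. With all lists held to a q-value of 0.01 the counts of histone genes with a region and of each BRM status given below were the same.

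Histones H2A, H2B and H3, with H4, form the protein core around which DNA is wound in the nucleosome. Canonical histones are made mainly during DNA replication, whereas variants are placed by dedicated chaperones or remodellers and mark particular chromatin: H2A.Z lies at gene starts, H2A.W in heterochromatin, H2A.X is phosphorylated at DNA breaks, and CENH3 marks the centromere. SWI/SNF complexes use ATP to slide or evict nucleosomes, and bromodomains bind acetylated lysines.

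The canonical genes were shorter, with a median length of 853 bp (727 to 1286 bp), against 1250 bp (615 to 2991 bp) for the variant genes. All 5 H2B genes and HTR11 lacked introns, while the 4 canonical H2A genes and 10 of the 11 variant genes had introns. HTR12, with 9 exons, was the longest of the 20.

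Sequence motifs tied to plant histone genes were counted first, in the window running from 250 bases before to 50 bases after each annotated start, on either strand, because the peaks of many of these genes lay in or beside it. The letters searched were CGCGGATC (the histone octamer), ACGTCA (the hexamer core), TATAAA (the TATA box), the letters CCAAT of the box of that name and an E2F-like motif, TTCCCGCC. None of them contains another. The octamer was found at 3 of the 20 genes (HTA10, HTA13 and HTA6) and in 0.144% of 27769 promoters. HTA10 carried it at 74 and at 10 bases before the start, HTA13 at 68 bases and HTA6 at 116 bases before the start. ACGTCA was found at all 5 H2B genes and at none of the other 15 genes, and in 9.17% of all promoters. CCAAT was found at 8 canonical and 6 variant genes, with 51.5% of all promoters holding it. TATAAA was found at 5 canonical and 3 variant genes, against 52.1% of all promoters. TTCCCGCC was found only at HTB4, and in 0.663% of all promoters. A match to these letters is a description and not evidence that a factor binds there.

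The 250 bases before the start of the 3 octamer genes and of 3 H2B genes are shown because they hold the octamer or the hexamer core and overlap no other annotated gene. The sequences are from RefSeq assembly TAIR10.1 and are written 5′ to 3′ on the strand of the gene, with CGCGGATC or ACGTCA, on either strand, in capitals. HTA10 is at chr1:18926561-18926810 (+), HTA13 at chr3:7229140-7229389 (+), HTA6 at chr5:24116221-24116470 (−), HTB9 at chr3:16898014-16898263 (−), HTB11 at chr3:16914132-16914381 (−) and HTB2 at chr5:7652715-7652964 (−).
HTA10 promoter: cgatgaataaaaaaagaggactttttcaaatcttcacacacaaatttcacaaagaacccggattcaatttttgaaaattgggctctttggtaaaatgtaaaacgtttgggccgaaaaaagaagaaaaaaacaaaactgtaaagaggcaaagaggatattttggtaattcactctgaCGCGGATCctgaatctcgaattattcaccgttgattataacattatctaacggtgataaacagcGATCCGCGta
HTA13 promoter: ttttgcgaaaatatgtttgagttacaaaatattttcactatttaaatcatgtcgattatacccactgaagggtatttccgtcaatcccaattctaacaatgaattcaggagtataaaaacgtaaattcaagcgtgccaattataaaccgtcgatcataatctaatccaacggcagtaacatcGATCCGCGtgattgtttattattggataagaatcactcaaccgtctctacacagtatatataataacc
HTA6 promoter: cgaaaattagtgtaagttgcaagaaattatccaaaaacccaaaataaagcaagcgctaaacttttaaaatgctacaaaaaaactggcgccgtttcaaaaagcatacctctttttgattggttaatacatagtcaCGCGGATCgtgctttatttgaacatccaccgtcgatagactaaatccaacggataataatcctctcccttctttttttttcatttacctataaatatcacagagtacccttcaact
HTB9 promoter: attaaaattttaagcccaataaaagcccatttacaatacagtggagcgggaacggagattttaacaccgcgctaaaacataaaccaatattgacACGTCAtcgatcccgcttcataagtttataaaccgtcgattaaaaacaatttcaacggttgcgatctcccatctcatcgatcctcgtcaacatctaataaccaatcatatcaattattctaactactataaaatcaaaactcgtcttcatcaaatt
HTB11 promoter: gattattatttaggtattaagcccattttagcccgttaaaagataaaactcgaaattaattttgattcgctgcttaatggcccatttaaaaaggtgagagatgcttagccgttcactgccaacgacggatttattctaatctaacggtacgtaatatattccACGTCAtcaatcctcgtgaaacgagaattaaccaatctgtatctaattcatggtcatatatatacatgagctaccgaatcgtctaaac
HTB2 promoter: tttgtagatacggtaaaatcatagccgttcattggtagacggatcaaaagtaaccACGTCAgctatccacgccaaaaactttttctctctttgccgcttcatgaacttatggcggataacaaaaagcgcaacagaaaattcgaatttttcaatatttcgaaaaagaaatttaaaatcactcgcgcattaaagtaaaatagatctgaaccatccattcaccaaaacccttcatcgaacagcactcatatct

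HTA6 shares the octamer with HTA10 and HTA13, but had a region in 1 of the 10 groups, whereas HTA10 and HTA13 had a region in all 10. Among the H2B genes, HTB9 and HTB11 had a region in all 10 groups and HTB2 in 5.

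A region was counted where peaks of the 2 replicates merged into an interval that held a peak of each, and a gene was given a region that overlapped its body or the 1000 bp upstream of its start by at least 1 bp. BRM-GFP in brd1/2/13 had a region at 7 of the 20 genes, 4 canonical and 3 variant, and 20.7% of all genes had such a region. BRM-GFP had a region at 17 genes, all 9 canonical genes and 8 of the 11 variant genes, against 55.6% of all genes. BRD1-GFP had a region at 17 genes (9 canonical, 8 variant; 66.0% of all genes). BRD2-dBromo-GFP had a region at 18 genes (9 canonical, 9 variant), against 62.2% of all genes, and BRD2-GFP at 16 genes (8 canonical, 8 variant), against 63.1%. BRD13-GFP had a region at 16 genes, 9 canonical and 7 variant, beside 55.7% of all genes. Regions of BRM-GFP, BRD1-GFP, BRD2-GFP and BRD13-GFP occurred together at 15 genes, and at 49.2% of all genes.

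Both acetylation marks were present at most of these genes too. H4K5ac had a region at 17 genes in brd1/2/13 (9 canonical, 8 variant), against 71.6% of all genes, and at 17 genes in WT (8 canonical, 9 variant), against 70.2%. H4K8ac had a region at 15 genes in brd1/2/13 (8 canonical, 7 variant), beside 65.3% of all genes, and at 16 genes in WT (8 canonical, 8 variant), beside 65.4%. The missing genes were largely the same few in every group: HTA4, an H2A.Z gene, had a region in no group, as 17.4% of all genes did, and HTA6 and HTA11 in 1 group each, as 3.22% of all genes did. A region in all 10 groups was found at 7 genes (HTA10, HTA13, HTA5, HTA7, HTB9, HTB11 and HTR12), and at 17.9% of all genes. Another 7 genes (HTA1, HTA2, HTA8, HTA9, HTB1, HTB4 and HTR11) had a region in 9 groups, as 22.3% of all genes did, and the group these 7 lacked was BRM-GFP in brd1/2/13.

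**Figure D1:**
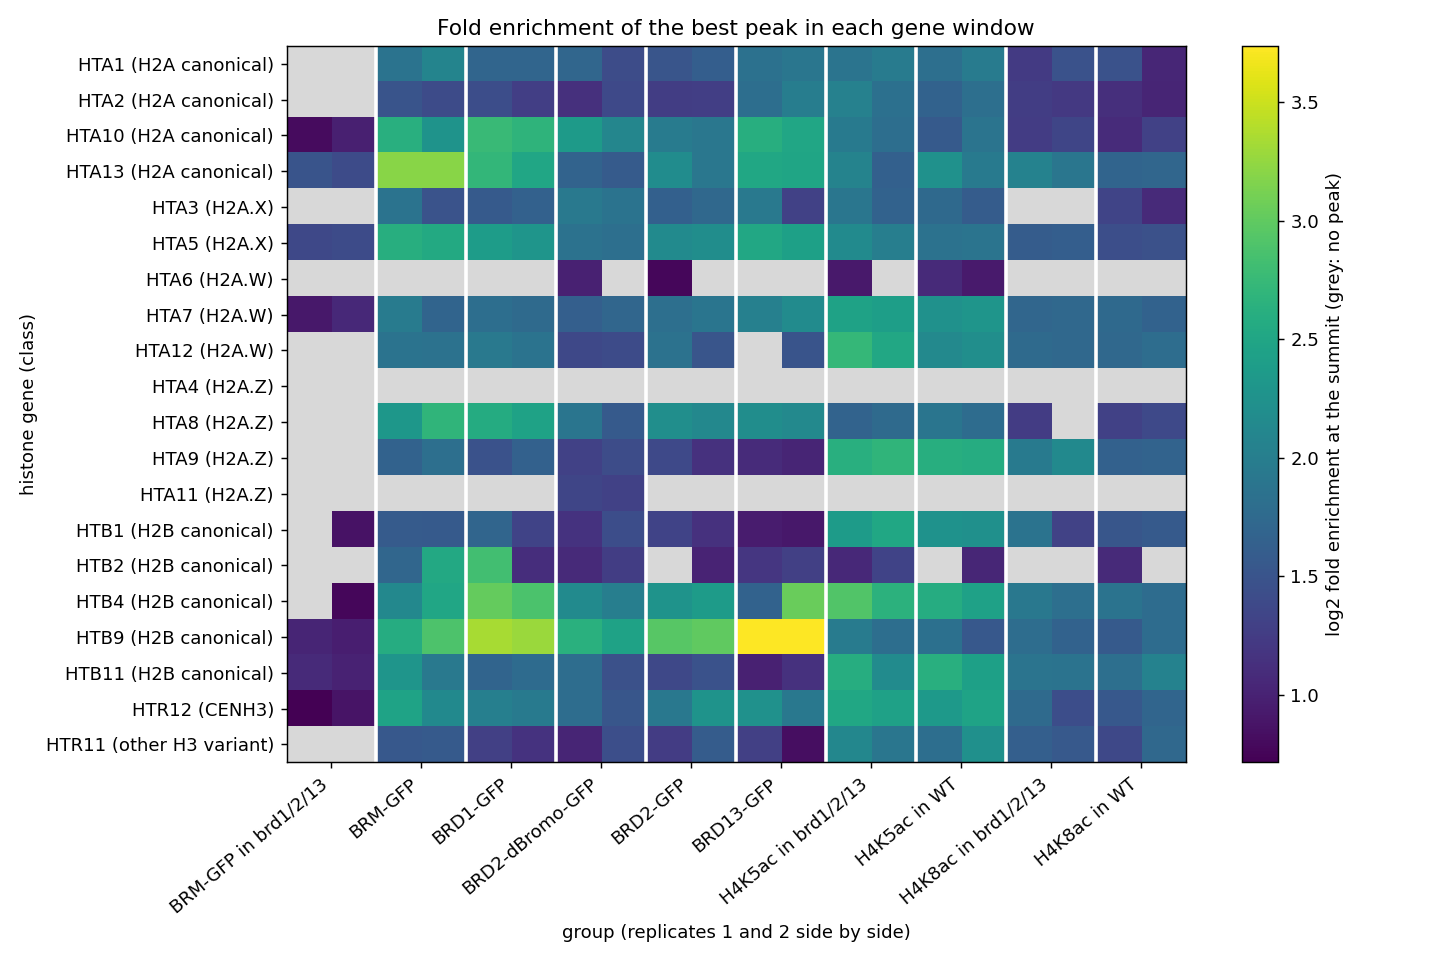
Colour shows the log2 fold enrichment at the summit of the best peak in each gene window (rows, the 20 histone genes) for each of the 20 peak lists (columns, 10 groups with replicates 1 and 2 side by side), and grey marks no peak. The rows of HTA4, HTA6 and HTA11 are mostly grey, the BRM-GFP in brd1/2/13 columns are grey at 13 genes in replicate 1 and 11 in replicate 2, and HTB9 is highest for BRD13-GFP with folds of 13.31 and 13.35.

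Histone genes are short and lie close to other genes, so a region can be shared. For BRM-GFP in brd1/2/13, 6 of the 7 regions at these genes also overlapped the window of another gene, as did 17 of 20 for BRM-GFP, 17 of 19 for BRD1-GFP, 18 of 21 for BRD2-dBromo-GFP, 16 of 18 for BRD2-GFP and 16 of 18 for BRD13-GFP. For H4K5ac the numbers were 18 of 23 in brd1/2/13 and 17 of 22 in WT, and for H4K8ac 16 of 20 in brd1/2/13 and 17 of 21 in WT. A stricter count was therefore made, chosen after seeing the data, of genes with a peak in both lists whose summit lay nearer to the start of the histone gene than to that of any other gene.

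By that count BRM-GFP in brd1/2/13 lay at 3 genes (HTB9, HTB11 and HTA7), against 15.2% of all genes, and BRM-GFP at 9 (HTR12, HTB1, HTA9, HTA3, HTB11, HTA2, HTA12, HTA7 and HTA1), against 39.7%. BRD1-GFP lay at 7 genes (46.9% of all genes), BRD2-dBromo-GFP at 13 (44.9%), BRD2-GFP at 8 (45%) and BRD13-GFP at 6 (39.7%). BRD2-dBromo-GFP thus had its own summit at more of these genes than the other fusions did. H4K5ac lay at 11 genes in brd1/2/13 and at 11 in WT, where all genes gave 60.9% in brd1/2/13 and 59.5% in WT. These were not all the same genes, with HTA13 and HTB2 only in brd1/2/13 and HTA10 and HTR12 only in WT. H4K8ac lay at 10 genes in brd1/2/13 and 11 in WT, where all genes gave 55.9% in brd1/2/13 and 55.8% in WT. Each peak in the lists has a single summit, so a wide peak that spans a histone gene but has its summit at the neighbour counts for the neighbour. Of the 18 best BRM-GFP peaks with a summit nearest to a neighbour, 12 still overlapped the body of the histone gene. The 18 had a median width of 2189 bp, against 745.5 bp for the 16 peaks with a summit nearest to the histone gene.

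**Figure D2:**
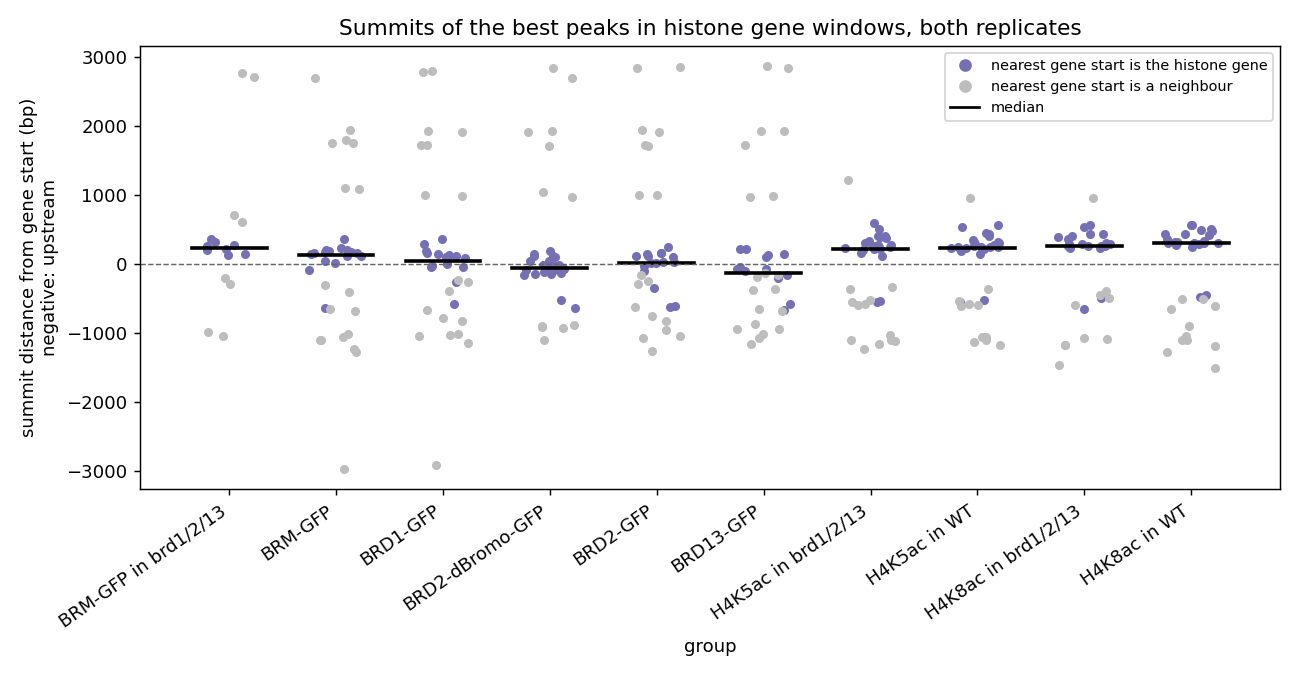
Each point is the summit of the best peak of a histone gene in a peak list, placed by its distance in bp from the annotated start (negative values are upstream), with the 10 groups along the x axis and both replicates shown. Black lines mark medians, purple points are summits nearest to the histone gene and grey points are nearest to a neighbour, which make up all points beyond 1000 bp on either side.

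Summit positions are given in bp from the annotated start, with negative values upstream. The 16 best summits of BRM-GFP in brd1/2/13 had a median position of 238 bp after the start, against 164 bp for all genes. Those of BRM-GFP had a median of 134 bp, and 17 of 34 lay within 500 bp of the start. For all genes the BRM-GFP median was 153 bp, with 61.7% within 500 bp. The BRD fusions lay nearer the start or before it, with medians of 49 bp for BRD1-GFP, -52 bp for BRD2-dBromo-GFP, 22 bp for BRD2-GFP and -124 bp for BRD13-GFP. Acetylation lay further into the genes, with medians of 219 bp for H4K5ac in brd1/2/13, 238 bp in WT, 256 bp for H4K8ac in brd1/2/13 and 305 bp in WT. Over all genes the BRD medians lay between 3.5 and 54 bp and the acetylation medians between 279 and 327 bp, so in both sets the BRD fusions lay before the acetylation marks.

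Of the 35 best H4K5ac summits in brd1/2/13, 20 lay in coding exons of the histone genes and 14 upstream. Of the 35 in WT, 19 lay in coding exons, 2 in introns and 13 upstream. BRD2-dBromo-GFP showed the opposite arrangement, with 23 of 37 summits upstream of the start and 1 in a coding exon. BRD13-GFP was much the same, with 21 of 33 upstream and 2 in coding exons. BRD2-GFP had 15 of 34 upstream and 2 in coding exons, and BRD1-GFP 16 of 34 upstream and 5 in coding exons. Many of these summits were nearest to a neighbour: 12 of 37 for BRD2-dBromo-GFP, 20 of 33 for BRD13-GFP, 18 of 34 for BRD2-GFP and 19 of 34 for BRD1-GFP. For H4K5ac the numbers were 13 of 35 in brd1/2/13 and 12 of 35 in WT. The shares of these locations over all genes were not counted.

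Fold enrichment, as MACS2 gives it, is the read pileup at the summit over the local background, and it was followed gene by gene in each list. In brd1/2/13 the mean of the 2 BRM-GFP folds had a median of 1.99 over the 7 genes with a peak in both lists, against 2.35 over all genes with such peaks. In BRM-GFP the median over 17 genes was 4.37, against 4.07 over all genes. The canonical genes had a BRM-GFP median of 4.54 and a range of 2.74 to 9.19, and the variant genes a median of 3.60 and a range of 2.94 to 5.98, so that the classes overlapped. The local background differed between these lists, at 36.4 and 37.0 reads in brd1/2/13 and 10.01 and 18.6 reads in BRM-GFP, and its part in the difference in fold was not tested.

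BRM status was set by whether a BRM-GFP region overlapped a peak in the brd1/2/13 lists. BRM was lost (no overlapping peak in either list) at 7 of the 17 genes with a BRM-GFP region, namely HTA1 and HTA2 of the canonical genes and HTA3, HTA12, HTA8, HTA9 and HTR11 of the variants. Over all genes with a BRM-GFP region, 41.1% were lost. BRM was partly retained (a peak in 1 list) at HTB1, against 15.1% of all genes, and retained (a peak in both lists) at 9 genes, 6 canonical (HTA10, HTA13, HTB2, HTB4, HTB9 and HTB11) and 3 variant (HTA5, HTA7 and HTR12), against 43.8%. The lost genes had a median mean BRM-GFP fold of 3.35 and the retained genes 5.02, compared with 3.01 and 5.96 for the same classes of all genes.

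With the count restricted to summits nearest to the histone gene, 6 of 9 genes were lost (HTR12, HTA9, HTA3, HTA2, HTA12 and HTA1), HTB1 was partly retained, and HTB11 and HTA7 were retained. Over all genes the shares were 50% lost, 15.5% partly retained and 34.5% retained. CENH3 gene HTR12 thus stood as retained through peaks beside its neighbours and as lost by the peaks nearest to its own start.

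**Figure D3:**
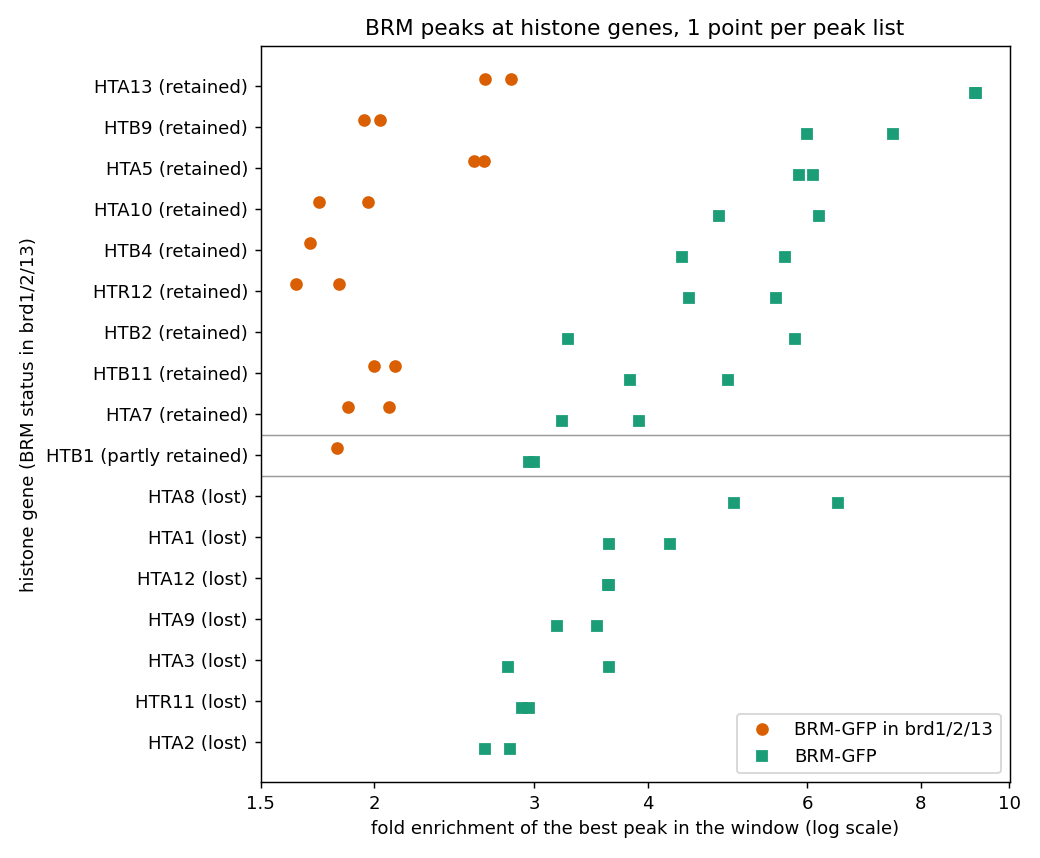
Fold enrichment of the best BRM peak (x axis, log scale) at the 17 histone genes with a BRM-GFP region, with 1 point per peak list, orange circles for BRM-GFP in brd1/2/13 and green squares for BRM-GFP, grouped by BRM status. No circle is above 2.83 and no square is below 2.65, and HTB2, although retained by its region, has no circle because no peak of brd1/2/13 lies in its window.

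The H2B genes found by name, all canonical, had a BRM-GFP region in the window at 5 of 5 loci. HTB9 (AT3G45980, chr3:16897287-16898013, − strand), whose promoter with ACGTCA is printed above, had BRM-GFP folds of 2.03 and 1.95 in brd1/2/13, against 6.0 and 7.45 in BRM-GFP. Both brd1/2/13 summits lay in its coding exon, at 197 and 221 bp. In BRM-GFP both summits lay downstream, at 1760 and 1945 bp, near EXLA1 (an expansin-like gene), although these peaks of 2509 and 2372 bp spanned the whole HTB9 body. The same downstream position carried the highest BRD folds of any of the 20 genes, at 13.31 and 13.35 for BRD13-GFP, 10.2 and 9.73 for BRD1-GFP, 6.21 and 5.50 for BRD2-dBromo-GFP, and 7.73 and 8.02 for BRD2-GFP.

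HTB11 (AT3G46030, chr3:16913384-16914131, − strand), also on chromosome 3, had BRM summits of its own in all 4 lists. Its folds were 2.11 and 2.00 in brd1/2/13, against 4.91 and 3.83 in BRM-GFP, and all 4 summits lay in its coding exon, between 127 and 367 bp. BRD1-GFP gave 3.22 and 3.41, BRD13-GFP 1.99 and 2.22, and BRD2-dBromo-GFP 3.47 and 2.77, against 2.58 and 2.78 for BRD2-GFP. The BRM folds of HTB11 were lower in brd1/2/13. Over all genes with a peak in the 4 lists, the median log2 shift was -1.35. The folds of BRD2-dBromo-GFP and BRD2-GFP overlapped.

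HTB4 (AT5G59910, chr5:24126877-24128162, + strand) and HTB2 (AT5G22880, chr5:7651868-7652714, − strand) were retained only through wide BRM-GFP regions of 2699 and 3944 bp. HTB4 had no peak in its window in the brd1/2/13 list of replicate 1 and a fold of 1.70 in that of replicate 2, against 4.36 and 5.67 in BRM-GFP with summits 1801 and 1758 bp after the start, near ULI3 (a UV-B response gene). BRD1-GFP gave 8.15 and 7.37, BRD2-dBromo-GFP 4.46 and 4.02, the second of these with its summit nearest to HTB4, BRD2-GFP 4.83 and 5.19, and BRD13-GFP 3.17 and 8.24. The best BRD13-GFP summit of replicate 1 lay at 95 bp, in the 5′ untranslated region (UTR) of HTB4, and that of replicate 2 at 1723 bp.

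HTB2 had no peak in either brd1/2/13 list, against BRM-GFP folds of 3.27 and 5.82 whose summits lay at -1230 and -2977 bp, near AT5G22890. BRD2-dBromo-GFP gave 2.11 and 2.41, at -156 and -150 bp from its own start, against no peak in replicate 1 and a fold of 2.02 in replicate 2 for BRD2-GFP. BRD1-GFP gave 7.08 and 2.16, again from distant and near summits, and BRD13-GFP 2.28 and 2.43 near the start. Its region was missing in 5 groups: BRM-GFP in brd1/2/13, BRD2-GFP, H4K5ac in WT, and H4K8ac in both genotypes.

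HTB1 (AT1G07790, chr1:2412938-2413790, + strand), the partly retained gene, had the lowest BRM-GFP folds of the H2B genes. No brd1/2/13 peak was found in replicate 1 and a fold of 1.82 in replicate 2, against 3.0 and 2.96 in BRM-GFP, all in its coding exon between 150 and 199 bp. BRD1-GFP gave 3.25 and 2.50, BRD2-dBromo-GFP 2.23 and 2.69, BRD2-GFP 2.50 and 2.22, and BRD13-GFP 1.92 and 1.88. Of the 50-base words of its window, 40.1% occur elsewhere in the nuclear genome, all of them upstream of its body, where PAI1 lies. The other 19 windows held at most 6.78% (HTA4).

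Among the canonical H2A genes, HTA13 (AT3G20670, chr3:7229390-7230146, + strand) had the highest BRM-GFP folds of the 20 genes. Its folds were 2.83 and 2.65 in brd1/2/13, against 9.18 and 9.19 in BRM-GFP, with every summit between -1109 and -994 bp, nearest to OCT4 (an organic cation transporter gene). The octamer of its promoter, 68 bases before the start, therefore lay apart from these summits. BRD1-GFP gave 6.58 and 5.68, BRD2-dBromo-GFP 3.19 and 3.0, BRD2-GFP 4.53 and 3.77, and BRD13-GFP 5.70 and 5.61.

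HTA10 (AT1G51060, chr1:18926811-18927746, + strand), with 2 octamer matches, had BRM folds of 1.74 and 1.97 in brd1/2/13, against 6.18 and 4.80 in BRM-GFP. The brd1/2/13 summits lay 611 and 255 bp after the start, in coding exons of HTA10, whereas the BRM-GFP summits lay at 1111 and 1084 bp, near bHLH115 (a transcription factor of iron homeostasis). BRD1-GFP gave 6.79 and 6.44, and BRD13-GFP 6.10 and 5.69. BRD2-dBromo-GFP gave 5.14 and 4.29, against 3.92 and 3.77 for BRD2-GFP, and all of these summits lay near bHLH115.

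HTA1 (AT5G54640, chr5:22196287-22197492, + strand), known as RAT5 from its need in Agrobacterium transformation, had no BRM peak in brd1/2/13, against 3.63 and 4.24 in BRM-GFP. The BRM-GFP summits lay at -638 bp in replicate 1 and at 369 bp, in a coding exon, in replicate 2. BRD1-GFP gave 3.25 and 3.26, BRD2-dBromo-GFP 3.27 and 2.66, BRD2-GFP 2.84 and 3.06, and BRD13-GFP 3.60 and 3.73. All 20 lists except those of BRM-GFP in brd1/2/13 placed their best summit nearest to HTA1 itself.

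HTA2 (AT4G27230, chr4:13637236-13638449, − strand) had no BRM peak in brd1/2/13, against 2.82 and 2.65 in BRM-GFP, the lowest mean of the canonical genes. BRD1-GFP gave 2.69 and 2.42, BRD2-dBromo-GFP 2.19 and 2.61, BRD2-GFP 2.41 and 2.42, and BRD13-GFP 3.50 and 4.0. The BRD13-GFP summits lay at -648 and -685 bp, nearest to AT4G27240, and the BRM-GFP summits at 118 and 171 bp within HTA2.

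Of the H2A.X genes, which supply the variant phosphorylated at DNA breaks, HTA5 was retained and HTA3 lost. HTA5 (AT1G08880, chr1:2846894-2848100, − strand) had folds of 2.58 and 2.64 in brd1/2/13, against 6.09 and 5.87 in BRM-GFP, between -399 and -200 bp and nearest to AT1G08890. BRD1-GFP gave 5.22 and 4.88, BRD13-GFP 5.77 and 5.38, and BRD2-dBromo-GFP 3.62 and 3.52, against 4.47 and 4.57 for BRD2-GFP. The BRD2-dBromo-GFP summits lay at -10 and 109 bp, nearest to HTA5, and the BRD2-GFP summits at -247 and -164 bp, nearest to the neighbour.

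HTA3 (AT1G54690, chr1:20414316-20415287, − strand) had no BRM peak in brd1/2/13, against 3.63 and 2.81 in BRM-GFP, at -89 and 113 bp from its start. BRD1-GFP gave 2.97 and 3.14, BRD2-dBromo-GFP 3.82 and 3.64, BRD2-GFP 3.13 and 3.33, and BRD13-GFP 3.82 and 2.47. The BRD2-dBromo-GFP folds were above those of BRD2-GFP in both lists, but the change did not pass the test described below (log2 change 0.38, SE 0.12, limma with Benjamini-Hochberg adjusted p = 0.0807).

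The 3 H2A.W genes, for the heterochromatin variant, differed in BRM status, with HTA7 retained, HTA12 lost and HTA6 without a BRM-GFP region. HTA7 (AT5G27670, chr5:9792509-9793560, − strand) had BRM folds of 1.87 and 2.08 in brd1/2/13, against 3.91 and 3.22 in BRM-GFP. The brd1/2/13 summits lay at 326 and 706 bp, in coding exons, with that of replicate 2 nearer to the start of DEG14, and the BRM-GFP summits lay at 37 and 211 bp. BRD1-GFP gave 3.50 and 3.38, BRD2-dBromo-GFP 3.1 and 3.27, BRD2-GFP 3.52 and 3.69, and BRD13-GFP 4.08 and 4.51. HTA7 was the only gene of the 20 with a peak nearest to its own start in both lists of every group.

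HTA12 (AT5G02560, chr5:575225-577216, + strand) had no BRM peak in brd1/2/13, against 3.63 and 3.62 in BRM-GFP at 162 and 231 bp. BRD13-GFP had no peak in replicate 1 and a fold of 2.83 in replicate 2, so that its region was missing there too. BRD1-GFP gave 3.84 and 3.63, and BRD2-dBromo-GFP 2.59 and 2.65, against 3.62 and 2.86 for BRD2-GFP. HTA6 (AT5G59870, chr5:24115354-24116220, − strand) had a region only for H4K5ac in WT, and otherwise single peaks in 1 of 2 lists, with folds of 1.99 for BRD2-dBromo-GFP, 1.70 for BRD2-GFP and 1.89 for H4K5ac in brd1/2/13.

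Of the 4 H2A.Z genes, none had a BRM region in brd1/2/13 and 2 had one in BRM-GFP. HTA8 (AT2G38810, chr2:16219220-16220928, − strand) had no peak in brd1/2/13, against 4.98 and 6.48 in BRM-GFP, the highest folds among the lost genes. The BRM-GFP summits lay at -1022 and -1107 bp, nearest to AT2G38820, which was true of every peak in its window. BRD1-GFP gave 5.97 and 5.50, BRD2-dBromo-GFP 3.70 and 2.97, BRD2-GFP 4.61 and 4.37, and BRD13-GFP 4.60 and 4.40.

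HTA9 (AT1G52740, chr1:19645236-19646485, + strand) had no BRM peak in brd1/2/13, against 3.18 and 3.52 in BRM-GFP, both in its own 5′ UTR at 13 and 171 bp. BRD1-GFP gave 2.78 and 3.14, BRD2-dBromo-GFP 2.47 and 2.66, BRD2-GFP 2.61 and 2.22, and BRD13-GFP 2.13 and 2.04. All 18 of its best summits were nearest to HTA9 itself. HTA11 (AT3G54560, chr3:20196140-20197726, + strand) had peaks only for BRD2-dBromo-GFP, with folds of 2.55 and 2.47 at 43 and -3 bp, against none in either BRD2-GFP list. HTA4 (AT4G13570, chr4:7884516-7885982, + strand) had no peak in any of the 20 lists.

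HTR12 (AT1G01370, chr1:143489-146479, + strand) encodes CENH3, the H3 variant of centromeric nucleosomes. Its window gave BRM folds of 1.64 and 1.83 in brd1/2/13, against 5.54 and 4.44 in BRM-GFP. Of these the 2 brd1/2/13 summits and that of BRM-GFP replicate 2 lay 2695 to 2775 bp after the start, nearest to ETC1 (a regulator of trichome patterning), and that of BRM-GFP replicate 1 lay at -1280 bp, nearest to RCAR1 (an abscisic acid receptor gene). The BRM-GFP peaks nearest to the start of HTR12 itself had folds of 2.54 and 2.09. BRD1-GFP gave 4.07 and 3.86, BRD2-dBromo-GFP 3.47 and 2.87, BRD2-GFP 3.81 and 4.80, and BRD13-GFP 4.74 and 3.81, all near ETC1.

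HTR11 (AT5G65350, chr5:26119211-26119825, − strand) had no BRM peak in brd1/2/13, against 2.91 and 2.96 in BRM-GFP. Each of its best peaks, in every list that had any, had its summit upstream and nearest to AT5G65360, an H3.1 gene. BRD1-GFP gave 2.43 and 2.23, BRD2-dBromo-GFP 2.03 and 2.72, BRD2-GFP 2.38 and 3.02, and BRD13-GFP 2.43 and 1.77.

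H4K5ac and H4K8ac were then set between brd1/2/13 and WT. A region of H4K5ac was found in both genotypes at 16 genes, in brd1/2/13 alone at HTB2 (4.06% of all genes with a region in either) and in WT alone at HTA6 (2.13%). At HTB2 the H4K5ac folds were 2.09 and 2.50 in brd1/2/13, against no peak in replicate 1 and 2.05 in replicate 2 of WT. At HTA6 the single brd1/2/13 peak had a fold of 1.89, against 2.1 and 1.91 in WT. The 2.1 peak of WT replicate 1 had its summit nearest to a neighbour and overlapped 172 bp of the HTA6 body. The 1.91 peak of WT replicate 2 lay wholly in the body and was a separate peak. With summits nearest to HTA6, brd1/2/13 had a peak in replicate 1 only (1.89) and WT in replicate 2 only (1.91). A region of H4K8ac was found in both genotypes at 15 genes and in brd1/2/13 alone at 0 (4.14% of all genes with a region in either). It was found in WT alone at HTA3 (4.24%), where brd1/2/13 had no peak and WT had folds of 2.53 and 2.1. The 2.1 peak of WT replicate 2 lay outside the HTA3 body, with its summit nearest to a neighbour. With summits nearest to HTA3 the WT folds were 2.53 and 1.97.

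In brd1/2/13 the highest mean H4K5ac folds were those of HTB4, HTA9 and HTA12. HTB4 had H4K5ac folds of 7.58 and 6.30 in brd1/2/13, against 6.03 and 5.45 in WT, with 3 of the 4 summits nearest to AT5G59900. HTA9 had 6.15 and 6.46 in brd1/2/13, against 6.09 and 6.03 in WT, and HTA12 had 6.65 and 5.78 in brd1/2/13, against 4.41 and 4.61 in WT. These folds were not centred, and over all genes tested H4K5ac had a median log2 shift of 0.07 in brd1/2/13. With each list centred on its median, the H4K5ac log2 changes were 0.20 (HTB4), -0.015 (HTA9) and 0.39 (HTA12). None of these 3 genes passed the test below. For H4K8ac, HTA9 had 3.85 and 4.45 in brd1/2/13, against 3.14 and 3.21 in WT, and HTA12 had 3.38 and 3.32 in brd1/2/13, against 3.33 and 3.48 in WT.

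Of the other H2A.Z genes, HTA8 had H4K5ac folds of 3.19 and 3.39 in brd1/2/13, against 3.70 and 3.44 in WT, and no H4K5ac or H4K8ac peak was found at HTA4 or HTA11. For H4K8ac HTA8 had 2.38 in replicate 1 and no peak in its window in replicate 2 of brd1/2/13, against 2.46 and 2.60 in WT, its brd1/2/13 region being counted because it extends beyond the window. At the CENH3 gene HTR12 the H4K5ac folds were 5.73 and 5.44 in brd1/2/13, against 5.09 and 5.55 in WT. Its H4K8ac folds were 3.38 and 2.69 in brd1/2/13, against 2.92 and 3.26 in WT. All of these summits lay more than 1000 bp upstream of HTR12, nearest to RCAR1, and the genotypes overlapped. WT had a further H4K5ac region in the HTR12 body (chr1:143620-144111). H4K5ac peaks with summits nearest to HTR12 had folds of 1.94 and 2.09 in WT. In brd1/2/13 only replicate 2 had such a peak, with a fold of 1.97.

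Among the retained genes, HTB9 had H4K5ac folds of 3.91 and 3.49 in brd1/2/13, against 3.57 and 2.93 in WT. Its H4K8ac folds were 3.48 and 3.18 in brd1/2/13, against 2.96 and 3.43 in WT. Unlike its BRM-GFP and BRD summits, these lay in its own coding exon, between 119 and 361 bp. HTB11 had H4K5ac folds of 6.04 and 4.51 in brd1/2/13, against 6.15 and 5.39 in WT, and H4K8ac folds of 3.66 and 3.64 in brd1/2/13, against 3.52 and 4.16 in WT, with the acetylation summits nearest to RPS15AD (a ribosomal protein gene) or AT3G46020. The best BRM summits of HTB11 were thus nearest to the histone gene and the best acetylation summits nearest to its neighbours, although an acetylated region also overlapped the HTB11 body in each genotype for both marks.

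HTA7 had H4K5ac folds of 5.47 and 5.32 in brd1/2/13, against 4.72 and 4.89 in WT, all between -550 and -525 bp, and H4K8ac folds of 3.28 and 3.32 in brd1/2/13, against 3.35 and 3.16 in WT. HTA5 had H4K5ac folds of 4.47 and 4.01 in brd1/2/13, against 3.61 and 3.66 in WT, and H4K8ac folds of 3.01 and 3.08 in brd1/2/13, against 2.72 and 2.76 in WT. In both genes the H4K5ac folds of brd1/2/13 lay above those of WT. With each list centred on its median the log2 changes were 0.09 (HTA7) and 0.15 (HTA5), and neither passed the test below. HTA13 had H4K5ac folds of 4.18 and 3.11 in brd1/2/13, against 4.72 and 3.85 in WT, and H4K8ac folds of 4.14 and 3.75 in brd1/2/13, against 3.22 and 3.29 in WT, all nearest to OCT4. Neither change at HTA13 passed the test below. HTA10 had H4K5ac folds of 3.85 and 3.49 in brd1/2/13, against 2.97 and 3.67 in WT, and H4K8ac folds of 2.38 and 2.54 in brd1/2/13, against 2.13 and 2.46 in WT.

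The H4K5ac folds of HTB1 were 5.2 and 5.71 in brd1/2/13, against 4.78 and 4.70 in WT, and its H4K8ac folds 3.65 and 2.49 in brd1/2/13, against 2.88 and 2.96 in WT. HTA1 had H4K5ac folds of 3.68 and 3.91 in brd1/2/13, against 3.53 and 3.92 in WT, and H4K8ac folds of 2.35 and 2.78 in brd1/2/13, against 2.78 and 2.06 in WT. HTA2 had H4K5ac folds of 4.12 and 3.56 in brd1/2/13, against 3.18 and 3.53 in WT, and H4K8ac folds of 2.41 and 2.33 in brd1/2/13, against 2.17 and 2.03 in WT. None of the changes at these 3 genes passed the test below. With each list centred on its median, the H4K5ac log2 changes were 0.13 (HTB1), -0.04 (HTA1) and 0.12 (HTA2). HTA3 had H4K5ac folds of 3.74 and 3.17 in brd1/2/13, against 3.37 and 3.02 in WT. For H4K8ac at HTB4 the folds were 3.79 and 3.54 in brd1/2/13, against 3.63 and 3.45 in WT. HTR11 had H4K5ac folds of 4.34 and 3.73 in brd1/2/13, against 3.49 and 4.68 in WT, and H4K8ac folds of 3.1 and 2.94 in brd1/2/13, against 2.59 and 3.34 in WT, and the genotypes overlapped in each of these last measures.

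The changes in fold were tested with limma on log2 values of the best peak, over every gene with a peak in all 4 lists, each list centred on its median, with Benjamini-Hochberg adjustment over all of these genes at 0.05. For H4K5ac, 16 histone genes were tested and 0 passed in either direction, where 0.268% of 19010 genes passed as higher and 0.242% as lower in brd1/2/13, or 0.510% together. Without centring the genome-wide calls split as 163 higher and 40 lower, in place of 51 higher and 46 lower. HTA12 was the only gene of the 16 at an unadjusted p under 0.05 (log2 change 0.39, SE 0.11, adjusted p = 0.152), and the median log2 change over the 16 was 0.06, against -0.003 over all genes tested. For H4K8ac, 14 histone genes were tested and 0 passed, where 0.0116% of 17300 genes passed as higher and 0.0694% as lower, or 0.0809% together. The largest change among the 14 was at HTA9 (log2 change 0.36, SE 0.13, adjusted p = 0.279), the only one at an unadjusted p under 0.05. A difference between the H4K5ac and H4K8ac changes passed at 0 of 14 genes, against 0.124% of all genes, with limma, and HTA9, HTA12 and HTA13 had an unadjusted p under 0.05.

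The test for BRM took only genes that kept a peak in both brd1/2/13 lists, so the lost genes lay outside it. All genes tested had a median log2 shift of -1.35 in brd1/2/13, and the changes were taken relative to that shift. Of 7 histone genes tested, HTA7 passed as higher than the shift (log2 change 0.51, SE 0.15, limma adjusted p = 0.0193), where 18.2% of 5575 genes did. HTA13 (log2 change -0.39, SE 0.12, adjusted p = 0.021) and HTB9 (log2 change -0.40, SE 0.14, adjusted p = 0.0418) passed as lower, where 16.1% did, or 34.3% of all genes in either direction. Relative to the shift, then, HTA7 kept more and HTA13 and HTB9 less of their BRM fold than the median gene tested. HTR12, HTA5, HTA10 and HTB11 did not pass. A gene with a low BRM-GFP fold stayed in the test only if its brd1/2/13 fold was still called as a peak. HTA7 had a mean BRM-GFP fold of 3.57, against a median of 5.96 over all genes with BRM retained. How far this filter set the place of HTA7 above the shift was not tested. At HTB9 the 2 groups have their summits at different places, in the histone gene in brd1/2/13 and near EXLA1 in BRM-GFP, and at HTA13 all of them lie near OCT4.

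Without centring all 7 genes were lower in brd1/2/13, HTA7 by a log2 change of -0.84, and the genome-wide calls became 0 higher and 5550 lower in place of 1015 and 900. With quantile normalization 0 of the 7 passed in limma (3 at an unadjusted p under 0.05), with log2 changes of 0.16 for HTA7 (adjusted p = 0.498), -0.20 for HTA13 (adjusted p = 0.307) and -0.47 for HTB9 (adjusted p = 0.0782). Calls were also lost in limma when 1 of the 4 lists was left out, while the direction of the 3 changes stayed. Without replicate 2 of brd1/2/13 none of the 3 passed, with log2 changes of 0.48 for HTA7 (adjusted p = 0.101), -0.30 for HTA13 (adjusted p = 0.127) and -0.32 for HTB9 (adjusted p = 0.18). Without replicate 1 of brd1/2/13 the changes of HTA7 (0.54, adjusted p = 0.0671) and HTB9 (-0.47, adjusted p = 0.0562) were no smaller than with all 4 lists but did not pass. Leaving out BRM-GFP replicate 1 took HTA13 to -0.38 (adjusted p = 0.0503), and leaving out BRM-GFP replicate 2 took HTA7 to 0.35 (adjusted p = 0.106) and HTB9 to -0.25 (adjusted p = 0.25). With peaks nearest to the histone gene only, HTA7 passed again (log2 change 0.42, SE 0.16, adjusted p = 0.0322) of the 2 genes that could be tested, HTA7 and HTB11.

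BRD2-dBromo-GFP was set against BRD2-GFP to ask whether the bromodomain change altered occupancy at these genes. All genes tested had a median log2 shift of -0.17. Of 16 histone genes, HTA10 passed as higher in BRD2-dBromo-GFP (log2 change 0.46, SE 0.12, limma adjusted p = 0.0437), where 3.61% of 15796 genes did. None of the 16 passed as lower, where 5.53% did, and 9.14% of genes passed in either direction. HTA3 and HTB11, at 0.38 and 0.39 on the log2 scale, and HTB9, at -0.26, had an unadjusted p under 0.05 and did not pass. The summits behind the HTA10 call lay near bHLH115, 968 to 1053 bp after the start of HTA10.

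The genome-wide split of 571 higher and 873 lower became 272 and 3052 without centring and 449 and 430 with quantile normalization. The HTA10 call was lost without centring (log2 change 0.29, adjusted p = 0.134), from the summit pileup in place of the fold (0.28, adjusted p = 0.155), and, in limma, without BRD2-dBromo-GFP replicate 1 (0.36, adjusted p = 0.129), BRD2-GFP replicate 1 (0.48, adjusted p = 0.0984) or BRD2-GFP replicate 2 (0.44, adjusted p = 0.113). Without centring HTB9 (log2 change -0.43, limma adjusted p = 0.0178) and HTA8 (-0.44, adjusted p = 0.05 after rounding) passed as lower in BRD2-dBromo-GFP. When only peaks nearest to the histone gene were used, 8 genes were tested and 2 passed, both higher in BRD2-dBromo-GFP. HTA5 had folds of 3.62 and 3.52 in BRD2-dBromo-GFP, against 2.09 and 2.22 in BRD2-GFP (log2 change 0.89, SE 0.14, adjusted p = 8.55e-05), and HTR12 had 2.39 and 2.81 in BRD2-dBromo-GFP, against 2.25 and 1.99 in BRD2-GFP (log2 change 0.45, SE 0.15, adjusted p = 0.0375). From the best peaks the log2 changes of the same 2 genes had the opposite sign, -0.17 for HTA5 and -0.27 for HTR12, and did not pass (limma adjusted p = 0.346 and 0.272), so the direction turned with the choice of peak. At HTA5 BRD2-dBromo-GFP had a single wide peak, whereas the BRD2-GFP peak nearest to the histone gene was a lesser peak beside the higher one near AT1G08890.

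**Figure D4:**
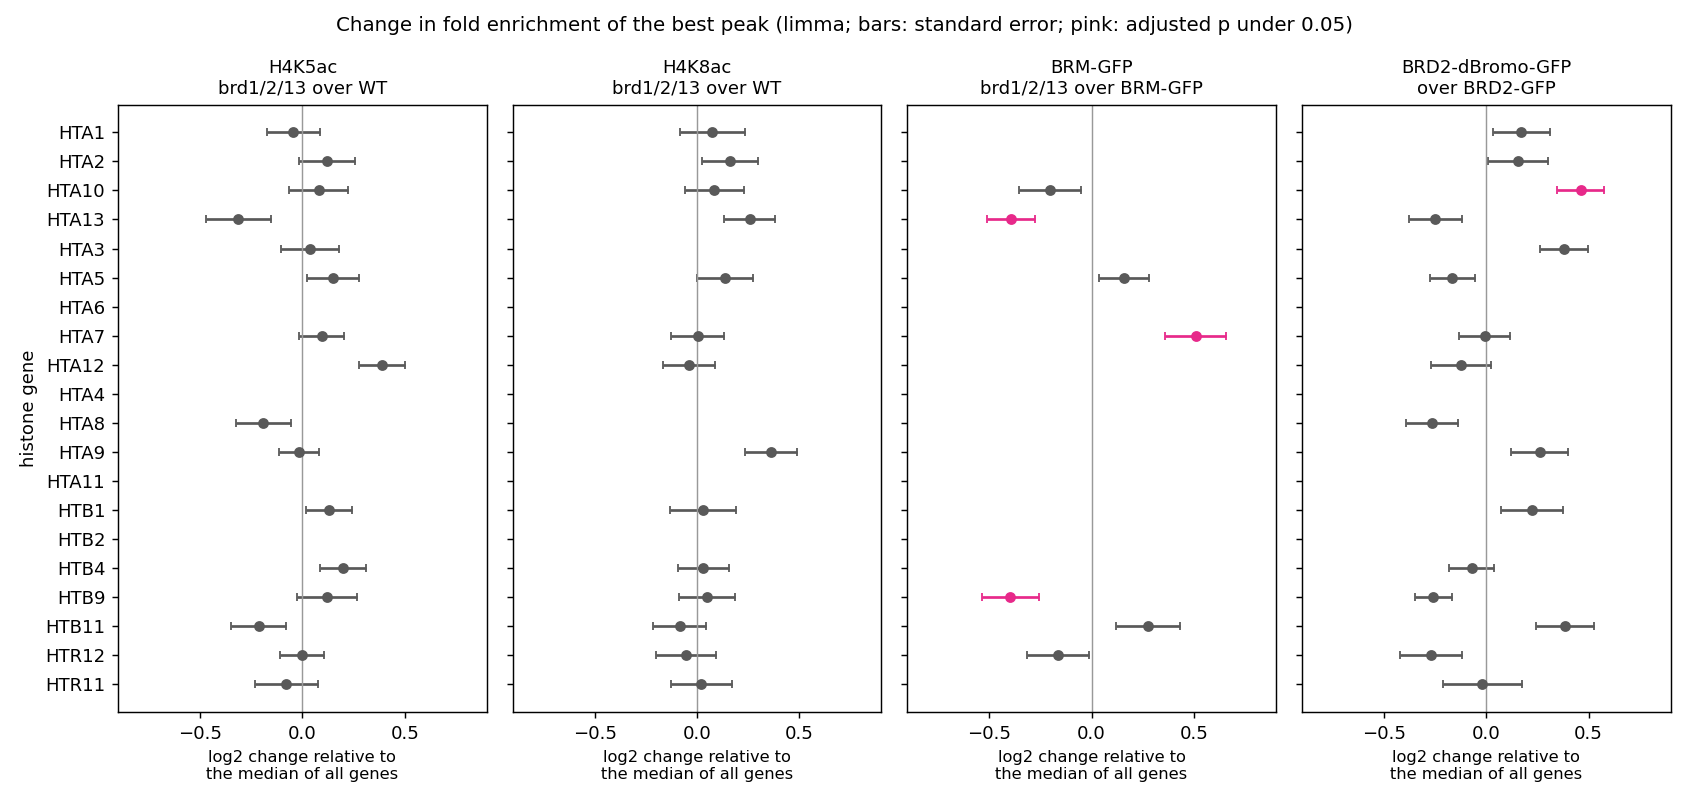
Log2 change in fold of the best peak at each histone gene with a peak in all 4 lists, relative to the median of all genes tested, in 4 contrasts (from left to right H4K5ac, H4K8ac and BRM-GFP in brd1/2/13 over their controls, and BRD2-dBromo-GFP over BRD2-GFP). Bars are standard errors from limma, and pink marks an adjusted p under 0.05, which only HTA13, HTA7, HTB9 (BRM) and HTA10 (BRD2) reached.

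Genes that supply or handle the other histones were read from fixed lists. The single gene annotated as histone H4, HIS4 (AT2G28740), was partly retained, with BRM folds of 1.79 in replicate 1 and none in replicate 2 of brd1/2/13, against 3.73 and 3.83 in BRM-GFP. Only the product name histone H4 was searched. The H3.1 and H3.3 genes below carry the product name Histone superfamily protein, and any H4 gene under that name would have been missed. HON4 and HON5, the only names of the linker histone list that matched, were partly retained as well. The annotation calls HON4 a winged-helix DNA-binding transcription factor family protein and HON5 high mobility group A5. Neither is annotated there as a linker histone. The 5 H3.1 genes and 3 H3.3 genes, found by the synonyms H3.1 and H3.3 in a search added after seeing the data, all had a BRM-GFP region, against 55.6% of all genes. Of all genes with such a region, BRM was retained at 43.8% and lost at 41.1%. BRM was retained at 3 H3.1 genes and lost at 2 (AT1G09200 and AT5G65360). It was retained at 3 of 3 H3.3 genes, 2 of which (AT4G40030 and AT4G40040) had the same best BRM-GFP folds, 5.54 and 5.92. The H3.1 gene AT5G10390 had no brd1/2/13 peak in its window. AT3G27360 (H3.1) and AT4G40030 (H3.3) had peaks in replicate 2 only, with folds of 2.05 and 2.15. These genes were retained only through BRM-GFP regions that reach beyond their windows.

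Chaperones and exchange factors, which bring histones to chromatin, were measured at 21 genes. H4K5ac had a region at 21 of 21 in both genotypes, where 71.6% of all genes had one in brd1/2/13 and 70.2% in WT, and H4K8ac at 20 of 21 in both, where 65.3% did in brd1/2/13 and 65.4% in WT. BRM-GFP had a region at 1 gene in brd1/2/13, against 20.7% of all genes, and at 13 in BRM-GFP, against 55.6%. BRM was lost at 9 of these 13, against 41.1% of all genes with a BRM-GFP region, among them PIE1, ARP6 and SWC2 of the complex that places H2A.Z and MSI1 of the chromatin assembly factor CAF-1, and partly retained at NRP1 and INO80. BRM was retained at 2 genes, NAP1;1 and FAS2, against 43.8%. NAP1;1 had no brd1/2/13 peak in its window and was retained only through a BRM-GFP region that reaches beyond it. FAS2, another CAF-1 subunit, had folds of 1.85 and 1.81 in brd1/2/13, against 5.63 and 6.28 in BRM-GFP. The other 8, including SEF of the complex that places H2A.Z, the H3.3 chaperone gene HIRA and the CAF-1 gene FAS1, had no BRM-GFP region.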

How the data were processed

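ChIP-seq was performed by the authors on 14-day-old seedlings, and per the labels reads were processed with Bowtie, MACS2 2.1.1 and deepTools on TAIR10. The submitted processing notes give no roles or settings for these tools, and the antibody field names GFP also for the acetylation samples, whose titles were followed. The deposited peak lists give, for each of 20 immunoprecipitated samples, peak positions and summit, a ratio (fold enrichment at the summit over the background), −log10 p- and q-values, and a score, all used or read as the authors deposited them. Summit pileups came out within 0.02 of a whole number of reads for at least 99.8% of peaks in each list, and the lists hold no total depth, so no interval was computed. No list of an untagged control was used here.

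Genes were the 27770 nuclear protein-coding and microRNA genes of the RefSeq TAIR10.1 annotation, whose 5 chromosomes contain every peak. The members and gene lists were chosen with earlier results of these data known, and so were the tests. Peaks of the 2 replicates that overlapped by at least 1 bp were merged, and merged intervals with a peak of each were kept as regions. A gene window was the body plus 1000 bp upstream, and the best peak was that of highest fold in the window. Log2 folds of the deposited ratio were compared with limma 3.58.1 (R 4.3.3) with a mean-variance trend, each list centred on its median, without pseudocount, and with Benjamini-Hochberg adjustment. Other steps used Python 3.11.15, pandas 2.3.3, numpy 2.4.6 and scipy 1.17.1. An exact permutation test of 2 against 2 samples cannot go below p = 0.333, so none was used.

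On simulated folds with 200 changed genes per contrast, the fits called 79% (H4K5ac, 19010 genes), 75% (H4K8ac, 17300), 82% (BRM, 5575) and 74% (BRD2, 15796) of the 2-fold changes. Of the 4-fold changes they called 96% (H4K5ac), 100% (H4K8ac), 98% (BRM) and 94% (BRD2). The spreads of the genes were shuffled among genes for the simulation. A 2-fold change is 1 on the log2 scale. In the main fits, with best peaks and centred lists, the largest change at a histone gene was 0.51 (HTA7, BRM). The rates therefore do not show how often changes of that size would be called.

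Genes were named by a fixed rule: the highest and lowest mean BRM-GFP fold of each class, every gene with BRM retained or partly retained, every gene past the limma threshold, every gene with a region in some but not all groups, and the H2A.Z and CENH3 genes for acetylation. Alternatives were a q-value of at most 0.01 or 1e-05, equal peak numbers, 500 bp either side of the start, the gene body, an overlap of 50%, no centring, quantile normalization, the summit pileup, a replicate block and leaving out each replicate. The restriction to peaks nearest to the start and the H3.1 and H3.3 lists were added after seeing the data. Of 23 chaperone and exchange factor names, 21 matched the annotation, and of the linker histone names HON4 and HON5 did.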

Additional observations from a re-analysis of the deposited data

How the results depend on the processing

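Counts of histone genes with a region, and of BRM status, kept within 1.5 times of their value with a 500 bp window, the gene body alone, an overlap of 50% and a q-value of at most 0.01. With a q-value of at most 1e-05, 4 genes (1 variant) had a region of BRM-GFP in brd1/2/13 and 3 were partly retained. With every list reduced to its best 6129 peaks, regions were found at 8 genes for BRM-GFP (5 canonical, 3 variant). BRD1-GFP had 7 (5 canonical, 2 variant), BRD2-dBromo-GFP 5 (3 canonical, 2 variant), BRD2-GFP 7 (4 canonical, 3 variant) and BRD13-GFP 6 (4 canonical, 2 variant). There were 4 for H4K5ac in brd1/2/13 (1 and 3), 5 in WT (3 and 2), 3 for H4K8ac in brd1/2/13 (2 and 1) and 3 in WT (2 and 1), with BRM lost at 1 gene and partly retained at 0. With peaks nearest to the start only, regions were found at 3 genes for BRM-GFP in brd1/2/13 (2 canonical, 1 variant), 9 for BRM-GFP (4 canonical, 5 variant), 7 with BRD1-GFP (3 canonical, 4 variant), 8 with BRD2-GFP (2 canonical), 6 with BRD13-GFP (4 canonical, 2 variant), 11 for H4K5ac in brd1/2/13 (5 variant), 11 in WT (5 canonical), and at 4 variant genes for H4K8ac in brd1/2/13 and 5 in WT, with BRM retained at 2 genes. These 2 settings count fewer peaks by construction.

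Leaving out a replicate gave 7 to 9 genes for BRM-GFP in brd1/2/13 (4 to 6 canonical), 18 to 19 for BRD2-dBromo-GFP (9 to 10 variant), 17 for BRD2-GFP (8 to 9 canonical, 8 to 9 variant), 16 to 17 for BRD13-GFP (7 to 8 variant), 17 to 18 for H4K5ac in each genotype, 14 to 15 for H4K8ac in brd1/2/13 and 16 to 17 in WT, with BRM lost at 7 to 8 and retained at 8 to 10. Under limma the BRM contrast had 7 genes past the threshold without centring, 0 with quantile normalization, 1 with peaks nearest to the start and 0 to 3 with a replicate left out. The BRD2 contrast had 2 without centring (HTB9 and HTA8, lower in BRD2-dBromo-GFP), 0 from the pileup, 2 with peaks nearest to the start (HTA5 and HTR12, higher) and 0 to 2 with a replicate left out. HTA7 turned to -0.84 on the log2 scale without centring, since the shift of all genes was then kept, and with a replicate left out it ranged from 0.35 to 0.66, HTA13 from -0.49 to -0.30, HTB9 from -0.54 to -0.25 and HTA10 from 0.36 to 0.56. H4K5ac and H4K8ac had 0 histone genes past the threshold in every fit. Over these alternatives the genome-wide calls ranged from 47 to 428 for H4K5ac (97 in the fit reported), 1 to 192 for H4K8ac (14), 620 to 5550 for BRM (1915) and 769 to 3324 for BRD2 (1444). Apart from those named, the causes were not tested.

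The replicates share only a number: deviations of same-numbered samples had correlations of -0.016 (H4K5ac), 0.023 (H4K8ac), -0.01 (BRM) and 0.036 (BRD2). With the replicate block the BRM contrast kept 3 genes past the threshold (of 7) and the BRD2 contrast 1 (of 16), and no call at a histone gene changed.

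Each comparison rests on 2 lists per group, a peak is known only above the threshold of its list, and a fold depends on the local background, so an absent peak does not show absent binding. BRM-GFP in brd1/2/13 had the fewest peaks and the highest background of the BRM lists. No untagged control or input was used here.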
